A study of Mus musculus with 16 samples.

Results

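The CCN family consists of 6 secreted matricellular proteins, each encoded by 1 gene. All 6 genes were found by name in a table of 49315 mouse genes, which lists them under their former symbols Cyr61, Ctgf, Nov, Wisp1, Wisp2 and Wisp3; the current symbols Ccn1 to Ccn6, in that order, are used here. Their RNA was measured in intervertebral discs from the tails of 16 mice, with 4 discs pooled per mouse and 1 library per mouse. Of these mice, 9 carried the Adam8EQ genotype and 7 were wild type, and the series title names DBA as the strain of comparison. Discs were intact in 3 wild-type and 4 mutant mice and injured in 4 wild-type and 5 mutant mice. The labels give neither the age nor the sex of the mice, neither the way nor the time of injury, and no further description of the EQ allele. They state no allele or agent that all groups share. Adam8 encodes a membrane-bound metalloprotease of the ADAM family.

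Matricellular proteins sit in the extracellular matrix without building it, and act by binding integrins, heparan sulfate proteoglycans and growth factors. Ccn1 and Ccn2 are known as rapid targets of the YAP/TAZ-TEAD, SRF and TGF-beta pathways in cells under mechanical load, and Ccn2 is made in abundance by notochordal cells of the nucleus pulposus and by chondrocytes. Ccn3 often opposes Ccn2 in chondrocytes, Ccn4 was found as a gene induced by Wnt1, Ccn5 lacks the cysteine-knot domain that ends the other members, and loss of human CCN6 causes progressive pseudorheumatoid dysplasia, a disease of cartilage.

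Promoter sequence was found in a RefSeq promoter table (GRCm38.p6) for 2 of the 6 genes, Ccn1 and Ccn6. Both are shown because Ccn1 is a textbook TEAD and SRF target and Ccn6 had the largest fitted difference of the family in injured mutant discs. Each stretch holds 300 bases, from 250 before to 50 after the start of the gene, written in the direction of the gene. The Ccn1 stretch is chr3:145649936-145650235 on the minus strand, and the Ccn6 stretch is chr10:39163745-39164044 on the minus strand. Capitals mark matches to the motifs searched on both strands.
Ccn1: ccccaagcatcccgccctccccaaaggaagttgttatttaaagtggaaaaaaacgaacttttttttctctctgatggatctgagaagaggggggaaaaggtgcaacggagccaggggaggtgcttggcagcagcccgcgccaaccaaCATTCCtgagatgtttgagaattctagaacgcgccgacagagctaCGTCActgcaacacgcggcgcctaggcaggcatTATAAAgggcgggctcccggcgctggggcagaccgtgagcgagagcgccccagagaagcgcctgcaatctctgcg
Ccn6: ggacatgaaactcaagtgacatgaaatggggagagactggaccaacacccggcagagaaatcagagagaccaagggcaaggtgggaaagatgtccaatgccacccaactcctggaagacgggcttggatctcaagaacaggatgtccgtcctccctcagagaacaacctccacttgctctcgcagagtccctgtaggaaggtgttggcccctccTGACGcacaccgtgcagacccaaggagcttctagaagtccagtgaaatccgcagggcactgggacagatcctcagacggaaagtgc
The Ccn1 stretch holds a TEAD motif (CATTCC) starting at position -103 from the gene start, a cyclic AMP response half-site (CGTCA, the other strand's TGACG) at -58 and a TATA box (TATAAA) at -25. The Ccn6 stretch holds a cyclic AMP response half-site (TGACG) at -36 and none of the other motifs searched. Neither stretch holds an AP-1 site (TGACTCA), a TCF/LEF motif (CTTTGA) or a CArG box. Among the 32851 promoters of the table, 14.7% hold the TEAD motif, 20.8% the half-site, 13.6% the TATA box, 5.2% the AP-1 site and 1.63% the CArG box, and 5257 of them hold the TCF/LEF motif. No 2 of the motifs overlap in either stretch, and the matches describe letters only.

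Levels are given as deposited TPM (transcripts scaled by length and by the library's total). Implied reads per library, recovered from the spacing of low TPM values, ranged from 10194886 to 24820853 with a median of 13296179.5. Genes at 1 TPM or more numbered 20085 to 21919 per library. Adam8 itself lay between 0.956 and 2.97 TPM in the 7 intact libraries, between 3.52 and 66.3 TPM in injured wild-type discs and between 16.2 and 264.1 TPM in injured mutant discs. A level says nothing of the allele, so it does not check the genotype labels. Injured wild-type discs were uneven: scores on the first principal component of the tested genes were -42.6 and -23.2 for mice 1 and 2, near the intact range of -66.9 to -40.2, and 84.9 and 41.8 for mice 3 and 4, within the range of injured mutants (39.6 to 97.8). The library names of mice 1 and 2 carry consecutive numbers, as do those of mice 3 and 4, with a gap between the pairs. What the numbers stand for is not stated, so the split cannot be told apart from a difference in handling. Because of this unevenness, values of injured wild-type mice are given mouse by mouse. Mitochondrial genes took 4.53% to 6.35% of TPM in intact libraries, 6.89% to 7.70% in injured wild-type and 5.07% to 7.43% in injured mutant libraries.

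The order of mean levels was the same in all 4 groups: Ccn2, Ccn1, Ccn3, Ccn5, Ccn4 and Ccn6. Ccn2 averaged from 1144 to 1301 TPM over the groups and ranked 47th to 62nd among the 24188 genes tested. Ccn1 averaged 289 to 389 TPM, Ccn3 75.4 to 157, Ccn5 19.0 to 58.0, Ccn4 13.5 to 23.7 and Ccn6 1.90 to 6.25. The ranges of neighbours in this order did not overlap, apart from Ccn1 and Ccn3 in intact mutant discs and Ccn5 and Ccn4 in injured mutant discs. In the plot of TPM by group, the injured mutant mice sit lowest on average in the panels of Ccn3, Ccn5 and Ccn6.

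**Figure D1:**
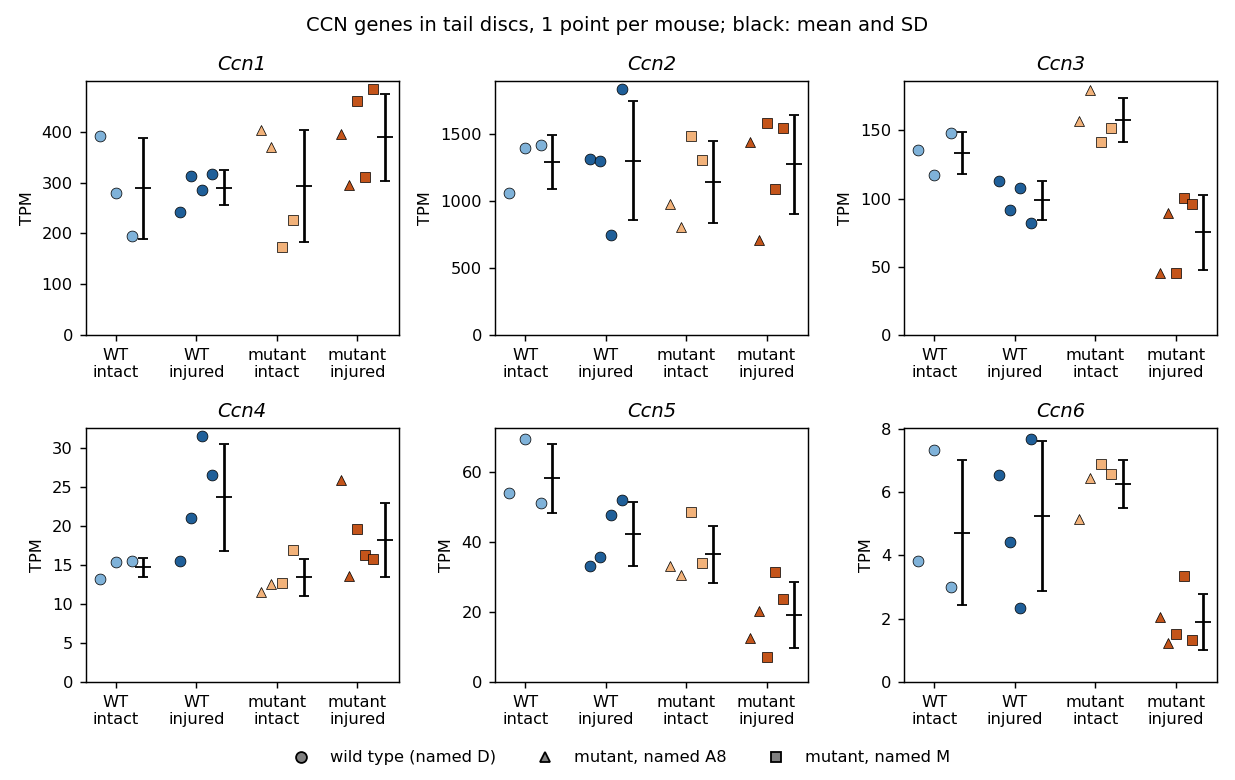
TPM (linear axis from 0) of each CCN gene by group, with 1 point per mouse, point shape by the first letters of the library name (D in wild type, A8 or M in mutants) and the black mark at the mean with its SD. Ccn3 and Ccn6 of the 5 injured mutant mice lie below all 4 intact mutant mice.

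The first comparison asked what injury did in Adam8EQ mutants. Ccn3, Ccn5 and Ccn6 fell, to 47.9%, 52.2% and 30.4% of their mean levels in intact mutant discs (5 injured against 4 intact mice). No CCN gene was called higher. Ccn1, Ccn2 and Ccn4, at 1.33, 1.12 and 1.35 times their intact means, did not pass the test. So 3 of 6 members were called lower and 0 higher in a comparison where 30.8% of all 24188 genes tested were called, made up of 17.7% lower and 13.1% higher. The median difference of the 6 members was -0.45 on the log2 scale, against -0.08 over all tested genes. The test was limma on log2(TPM + 1), a scale that understates changes of genes at low TPM, with Benjamini-Hochberg adjustment over all tested genes and a threshold of 0.05.

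Ccn3 (ENSMUSG00000037362, chr15:54745702-54754039 on the plus strand, GRCm38) is a growth inhibitor in many cells. In intact mutant discs it was at 156.8, 179.4, 141.6 and 151.6 TPM, a mean of 157 ± 15.99 (SD, n = 4). In injured mutant discs it was at 45.5, 89.3, 45.7, 100.5 and 96.2 TPM, a mean of 75.4 ± 27.6 (SD, n = 5). All injured mice lay below all intact mice, as they did for Ccn6 too, where 27.2% of all tested genes had ranges that did not overlap in either direction. Mice 1 and 3 were the lowest. Ccn3 fell by 1.13 ± 0.23 (SE) on the log2 scale, with a limma adjusted p of 0.002704.

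Ccn5 (ENSMUSG00000027656, chr2:163820861-163833146, plus strand) is known from smooth muscle and fibroblasts, where it restrains proliferation and fibrosis. Intact mutant discs held 33.0, 30.4, 48.4 and 33.98 TPM of Ccn5, a mean of 36.4 ± 8.10 (SD, n = 4). Injured mutant discs held 12.6, 20.2, 7.32, 31.4 and 23.6 TPM, a mean of 19.0 ± 9.40 (SD, n = 5). The groups overlapped through injured mouse 4 at 31.4 TPM, and the same mice 1 and 3 were again the lowest. Ccn5 fell by 1.03 ± 0.31 (SE) on the log2 scale, with a limma adjusted p of 0.02114. This call was lost in more settings than those of Ccn3 and Ccn6: the adjusted p was 0.0564 in a fit of the mutant groups alone, 0.0508 without injured mutant 1 and 0.0622 without intact mutant 3, and ran from 0.006009 to 0.1649 over all alternatives.

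Ccn6 (ENSMUSG00000062074, chr10:39150970-39163794, minus strand) was the least abundant member. It was at 5.13, 6.43, 6.87 and 6.55 TPM in intact mutant discs, a mean of 6.25 ± 0.766 (SD, n = 4). In injured mutant discs the values were 2.07, 1.24, 1.51, 3.35 and 1.33 TPM, a mean of 1.90 ± 0.874 (SD, n = 5). The groups did not overlap, and injured mouse 4 was the highest of its group. Ccn6 fell by 1.36 ± 0.30 (SE) on the log2 scale, with a limma adjusted p of 0.004462. These values rest on few reads, 18 to 33 implied reads per library in intact and 6 to 17 in injured mutant discs. The gene also shares 482 exon bases with Tube1 on the opposite strand, and without a statement of strand in the sources used here reads of the shared bases cannot be assigned. Tube1, which encodes epsilon-tubulin, averaged 3.57 TPM in intact and 2.29 TPM in injured mutant discs, a difference of -0.50 ± 0.20 (SE) with an adjusted p of 0.0793.

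The abundant members moved less. Ccn1 (ENSMUSG00000028195, chr3:145646976-145649981, minus strand), an angiogenic and adhesive member, was at 403.3, 369.9, 174.0 and 226.2 TPM in intact mutant discs. In injured mutant discs it was at 395.2, 294.3, 460.6, 311.8 and 484.1 TPM. The groups overlapped, and the means of 293 ± 111 and 389 ± 85.3 TPM (SD) differed by 0.46 ± 0.25 (SE) on the log2 scale, with a 95% interval from -0.08 to 1.01 and an adjusted p of 0.1867. The intact mutant values formed a high and a low pair, which follow the names of the libraries (given further on).

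Ccn2 (ENSMUSG00000019997, chr10:24595442-24598683, plus strand), a cofactor of TGF-beta in matrix production, was at 982.0, 803.7, 1484 and 1304 TPM in intact mutant discs. Injured mutant discs held 1443, 712.0, 1586, 1092 and 1547 TPM. The injured values bracketed the intact ones on both sides. The means of 1144 ± 307 and 1276 ± 371 TPM (SD) differed by 0.14 ± 0.29 (SE) on the log2 scale, with a 95% interval from -0.47 to 0.75 and an adjusted p of 0.7467. Ccn2 shares 665 exon bases with Gm15270, an unnamed gene model on the opposite strand, at 5.16 to 22.3 TPM.

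Ccn4 (ENSMUSG00000005124, chr15:66891320-66923201, plus strand), a member known from osteoblasts and fibrosis, was at 11.6, 12.6, 12.7 and 17.0 TPM in intact mutant discs. Injured mutant discs held 25.9, 13.6, 19.6, 16.3 and 15.7 TPM. Intact mouse 4 overlapped the injured group, of which mouse 1 was the highest. The means of 13.5 ± 2.38 and 18.2 ± 4.78 TPM (SD) differed by 0.39 ± 0.20 (SE) on the log2 scale, with a 95% interval from -0.04 to 0.82 and an adjusted p of 0.1559.

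In wild-type discs, injury called 0 of 6 CCN genes, where limma called 0.116% of all tested genes (28 of 24188) at an adjusted p under 0.05. At an unadjusted p under 0.05, 1 member passed (Ccn4), where 17.2% of all tested genes did. The median difference of the 6 members was 0.0036 on the log2 scale, against 0.0090 over all tested genes. Ccn4 had the largest difference of the 6, to 1.61 times its intact mean. Ccn3 and Ccn5 had means of 73.8% and 72.7% of the intact means, and the other members had fitted differences within 0.11 of 0. Ranges of injured and intact wild-type mice did not overlap for Ccn3 (lower) and Ccn4 (higher), a pattern that 15.6% of all tested genes showed in either direction. For Ccn4 the ranges almost met, at 15.546 TPM in the lowest injured and 15.534 TPM in the highest intact mouse.

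Ccn4 was at 13.3, 15.4 and 15.5 TPM in intact wild-type discs and at 15.5, 21.1, 31.6 and 26.6 TPM in injured ones. Injured mouse 1 stood beside the intact mice, and mice 3 and 4, which stand on the injured side of the first principal component, were the highest. The means were 14.7 ± 1.25 (SD, n = 3) and 23.7 ± 6.91 TPM (SD, n = 4). The difference of 0.61 ± 0.23 (SE) on the log2 scale had a 95% interval from 0.12 to 1.10, an unadjusted limma p of 0.01841 and an adjusted p of 0.2201.

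Ccn3 was at 135.7, 117.4 and 147.9 TPM in intact wild-type discs and at 113.2, 91.8, 107.7 and 81.9 TPM in injured ones. All injured mice were below all intact mice, but mice 2 and 4 were the lowest, one from each side of the principal component. The difference of -0.44 ± 0.26 (SE) had a 95% interval from -0.99 to 0.11 and an adjusted p of 0.3821. Ccn5 was at 53.8, 69.3 and 51.0 TPM in intact and at 33.1, 35.8, 47.8 and 52.0 TPM in injured wild-type discs. Here the injured mice 1 and 2 were the lowest and mouse 4 overlapped the intact group. The difference was -0.46 ± 0.35 (SE), with a 95% interval from -1.21 to 0.29 and an adjusted p of 0.5035.

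Ccn6 was at 3.83, 7.31 and 3.01 TPM in intact wild-type discs and at 6.54, 4.44, 2.34 and 7.68 TPM in injured ones. Both groups ranged over more than a doubling, and the difference of 0.11 ± 0.34 (SE) had a 95% interval from -0.61 to 0.84. Ccn1 was at 391.9, 280.0 and 194.0 TPM in intact and at 242.1, 313.8, 285.4 and 317.6 TPM in injured wild-type discs. All injured values lay within the intact range, around means of 289 ± 99.2 and 290 ± 34.9 TPM (SD), and the interval of the difference ran from -0.56 to 0.67. Ccn2 was at 1062, 1397 and 1417 TPM in intact and at 1318, 1298, 749.2 and 1840 TPM in injured wild-type discs. Injured mouse 3 was below and mouse 4 above all intact mice, and the interval of the difference ran from -0.74 to 0.65. The plot of log2 differences shows these intervals beside those in mutants.

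**Figure D2:**
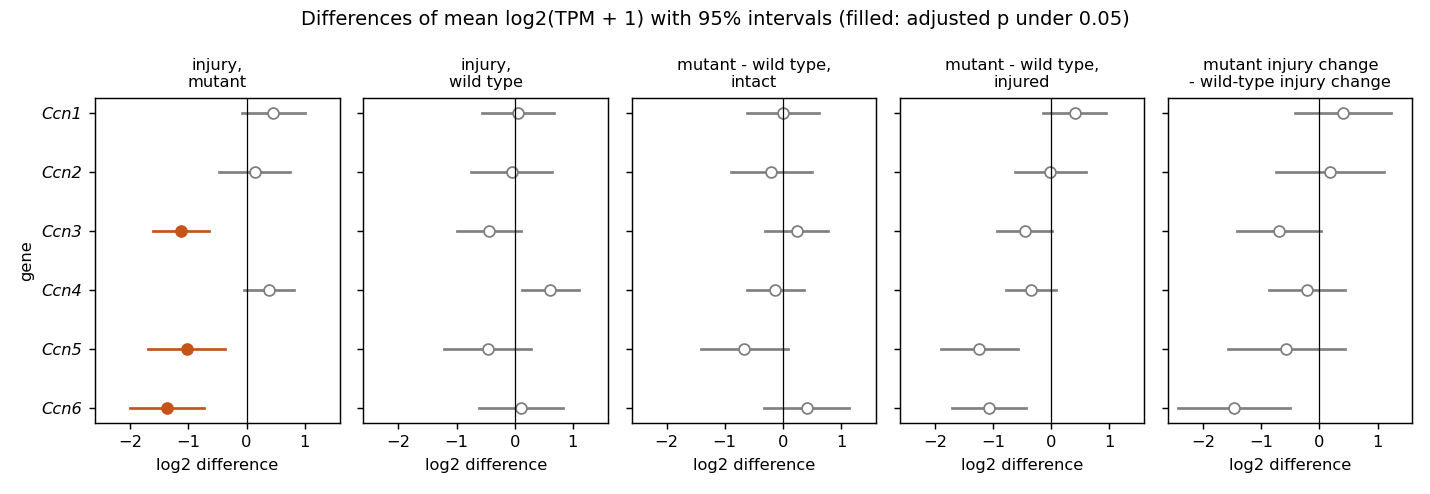
Difference of each CCN gene on the log2(TPM + 1) scale in the 5 comparisons, with 95% intervals from the limma fit and filled points where the adjusted p is under 0.05. The filled points are Ccn3, Ccn5 and Ccn6 for injury in mutants.

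Between genotypes in intact discs, limma called 0 of 6 members, where 0.0165% of all tested genes were called, and no member had an unadjusted p under 0.05, where 3.78% of all genes did. Ccn5 had the largest difference: its 4 mutant mice, at 30.4 to 48.4 TPM, all lay below the 3 wild-type mice, at 51.0 to 69.3 TPM. Ranges of the 2 genotypes did not overlap for 6.18% of all tested genes. The mutant mean of Ccn5 was 62.8% of the wild-type mean, and the difference of -0.67 ± 0.35 (SE) had a 95% interval from -1.42 to 0.08 and an unadjusted limma p of 0.07745. Ccn6 differed by 0.41 ± 0.34 and Ccn3 by 0.23 ± 0.26, both with overlapping mice. Ccn2 differed by -0.20 ± 0.33, Ccn4 by -0.13 ± 0.23 and Ccn1 by -0.0017. The median difference of the members was -0.07, against -0.01 over all tested genes.

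Between genotypes in injured discs, 0 of 6 members passed the limma threshold, where 0.918% of all tested genes did. At an unadjusted p under 0.05 there were 2 members, Ccn5 and Ccn6, where 20.3% of all tested genes passed. Both were lower in the mutants, with means of 45.1% and 36.2% of the wild-type means. The median difference of the 6 members was -0.40 on the log2 scale, against -0.09 over all tested genes.

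For Ccn5, the 5 injured mutant mice (7.32 to 31.4 TPM) all lay below the 4 injured wild-type mice (33.1 to 52.0 TPM), a separation seen for 4.77% of all tested genes. The difference was -1.23 ± 0.31 (SE), with a 95% interval from -1.89 to -0.57, an unadjusted limma p of 0.001203 and an adjusted p of 0.06807. Without injured mutant 4 the adjusted p was 0.0318, and without injured wild type 3 it was 0.0488, within a range of 0.0318 to 0.2421 over all alternatives. For Ccn6, injured wild-type mouse 3 at 2.34 TPM overlapped the mutant range of 1.24 to 3.35 TPM, and the other wild-type mice were higher. The difference was -1.06 ± 0.30 (SE), with a 95% interval from -1.70 to -0.43, an unadjusted limma p of 0.002899 and an adjusted p of 0.08378. Without the same mice the adjusted p was 0.0477 and 0.0144, within a range of 0.0144 to 0.2582 over all alternatives. Without these mice more of all tested genes were called lower in mutants as well. The counts were 536 of 24014 without injured mutant 4 and 1609 of 23927 without injured wild type 3, against 176 of 24188 in the main fit. Tube1 averaged 3.31 TPM in injured wild-type discs and 2.29 TPM in injured mutant discs.

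The other members had adjusted p-values from 0.269 to 0.9814 in this comparison. Ccn3 differed by -0.46 ± 0.23 (SE), Ccn4 by -0.35 ± 0.20, Ccn1 by 0.40 ± 0.25 and Ccn2 by -0.02 ± 0.29. The comparisons share groups: the injured mutant mice that are low for Ccn5 and Ccn6 here are the mice of the injury comparison.

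Whether injury acted differently in the 2 genotypes was tested by the interaction in the same fit. It called 0 of 6 members and 0 of all tested genes, and at an unadjusted p under 0.05 it had 1 member, Ccn6, where 8.18% of all tested genes passed. The Ccn6 interaction was -1.47 ± 0.45 (SE) on the log2 scale, with a 95% interval from -2.44 to -0.51, an unadjusted limma p of 0.00545 and an adjusted p of 0.4879. It sets a difference of -1.36 in mutants beside one of 0.11 in wild type. Ccn3 had an interaction of -0.69 ± 0.34 with an interval from -1.42 to 0.04, and Ccn5 one of -0.57 ± 0.47. Those of Ccn1 (0.41 ± 0.39), Ccn2 (0.19 ± 0.43) and Ccn4 (-0.22 ± 0.31) were smaller than or close to their errors. The calls for Ccn3, Ccn5 and Ccn6 in mutants are therefore not shown to differ from wild type at the adjusted threshold.

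Summed TPM of the family was dominated by Ccn2. The 6 genes together averaged 1792 ± 117 TPM (SD, n = 3) in intact and 1761 ± 451 (n = 4) in injured wild-type discs, and 1650 ± 200 (n = 4) in intact and 1780 ± 436 (n = 5) in injured mutant discs. Ccn2 supplied 57.3% to 79.5% of this sum in every mouse and Ccn1 9.32% to 26.4%. From intact to injured mutant discs, the mean share of Ccn3 went from 9.74% to 4.66%, that of Ccn5 from 2.196% to 1.18%, that of Ccn6 from 0.381% to 0.113% and that of Ccn1 from 18.5% to 22.1%. Shares were not tested.

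**Figure D3:**
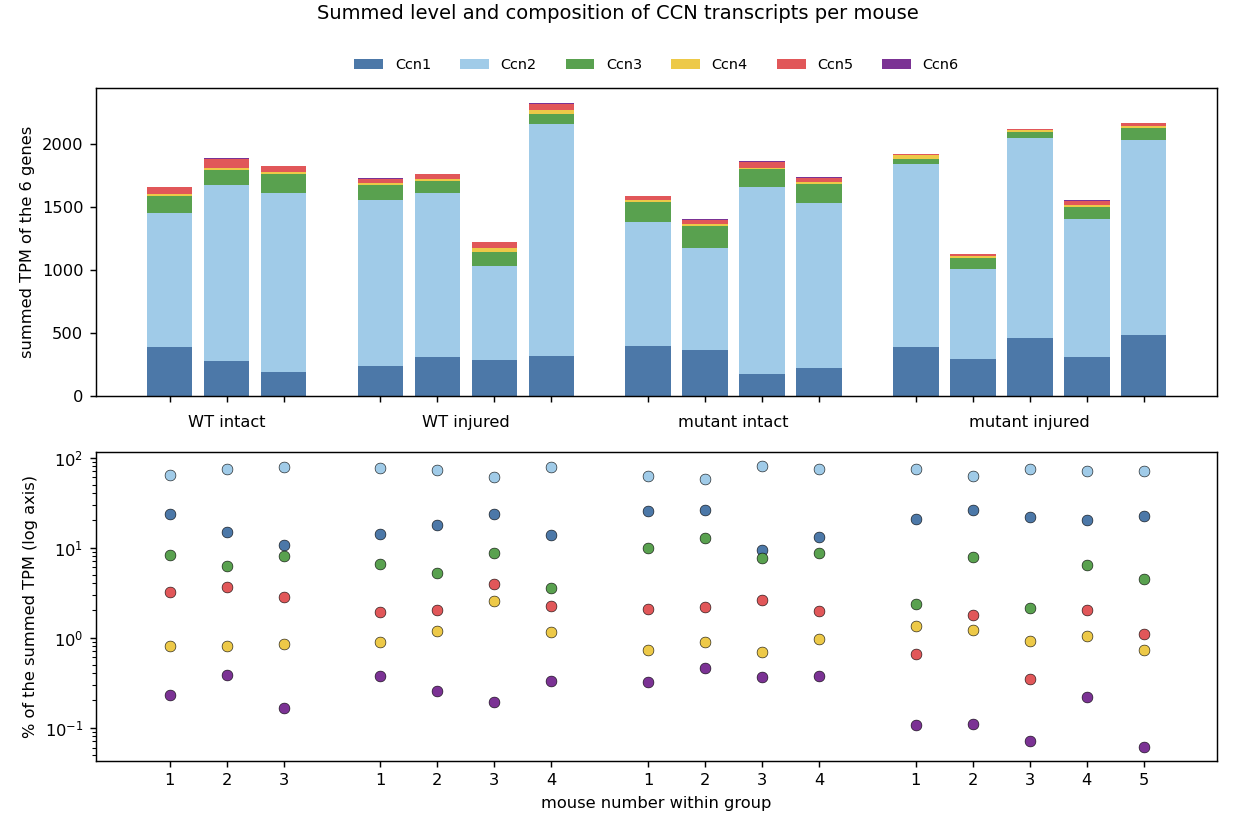
Summed TPM of the 6 CCN genes per mouse, stacked by gene (linear axis from 0), and the share of each gene in that sum in percent (log axis, 1 point per mouse). Ccn2 fills most of every bar, and the shares of Ccn3, Ccn5 and Ccn6 reach their lowest values in injured mutant mice.

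Mutant library names begin with A8 in intact mice 1 and 2 and injured mice 1 and 2, and with M in the other 5; the labels do not say what the letters stand for. Values of Ccn1 and Ccn2 divided by this naming in intact mutant discs, with 2 against 2 libraries. The share of all tested genes that divide in this way was not computed, so an effect of naming is not shown. Intact wild-type mice, all of 1 naming, spanned 194.0 to 391.9 TPM of Ccn1 and 1062 to 1417 TPM of Ccn2. The A8 libraries held 369.9 to 403.3 TPM of Ccn1 and the M libraries 174.0 to 226.2, whereas for Ccn2 the A8 libraries held 803.7 to 982.0 TPM and the M libraries 1304 to 1484. Within M libraries, the injury difference of Ccn1 was 1.05 (limma adjusted p 0.0665) and within A8 libraries -0.18 (0.702), beside a pooled value of 0.46. Whether the M and A8 values differ was not tested. For Ccn3 the injury difference was -0.93 within M (adjusted p 0.0928) and -1.38 within A8 (0.0199), and for Ccn5 it was -1.15 within M (0.165) and -0.94 within A8 (0.0431). For Ccn6 it was -1.39 within M (0.106) and -1.36 within A8 (0.0834). Over all alternatives the adjusted p ran from 0.001137 to 0.0928 for Ccn3 and from 0.001438 to 0.106 for Ccn6. The direction held within both sets for these 3 genes, with 3 injured against 2 intact M libraries and 2 against 2 A8 libraries. Fewer of all tested genes were called in these smaller fits. For injury in mutants, limma called 329 higher and 414 lower of 23489 with M libraries only. With A8 libraries only, it called 1635 higher and 2014 lower of 23362, against 3168 and 4270 of 24188 in the main fit. Wild-type library names all begin with D, so naming and genotype cannot be told apart. The numbers in the names run separately for intact and injured mice in wild type and in A8 mutants, but without a gap in M mutants. In wild type and A8 mutants, injury therefore cannot be told apart from a difference in handling that may follow these numbers.

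Among the mice of a group, the members did not vary as 1 block. After group means were removed, Pearson's r of log2(TPM + 1) over the 16 libraries was 0.62 between Ccn3 and Ccn5 and 0.46 between Ccn2 and Ccn6. It was -0.57 between Ccn3 and Ccn4 and -0.50 between Ccn2 and Ccn3, and -0.09 between Ccn1 and Ccn2. These are descriptions: the values of a library share its depth, dissection and RNA quality, which differ between libraries.

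The genes most like each member were ranked in the same way among 11964 genes of at least 5 TPM on average (11965 for Ccn6, which is itself below that level). Ccn2 varied most closely with Col2a1, the main collagen of cartilage (r = 0.92, and 0.85 without the 2 libraries farthest from the median of Ccn2), then with the clock gene Nr1d1 (0.88), Nomo1 (0.87) and Cobll1 (0.87). Ccn3 varied most closely with Cyp1b1 (0.93, and 0.86 without 2 libraries), Flt1 (0.91), Ttc7b (0.90) and Aplp2 (0.90). For Ccn5 the closest were the ribosomal protein gene Rps6 (0.95, and 0.91 without 2 libraries), Pcolce, which encodes an enhancer of procollagen processing (0.95), Adh1 (0.92) and Rps3 (0.88). Ccn1 was closest to the transcription factor gene Nfatc2 (0.86, and 0.78 without 2 libraries), Insig2 (0.80), Ube2r2 (0.79) and Tob1 (0.78). For Ccn4 they were Gpkow (0.91, and 0.90 without 2 libraries), Slc25a44 (0.89), Zc3h7a (0.88) and Gspt1 (0.87). Ccn6, at its low level, was closest to the microRNA gene Mir708 (0.81, and 0.80 without 2 libraries), St3gal5 (0.79), Faf1 (0.78) and Ppp1r1b (0.78). All of these genes were picked as the highest among so many correlations over 16 libraries, where selection alone gives high values. None was tested.

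The pathways around the family were followed with 6 gene lists, whose values are log2 differences ± SE followed by the limma adjusted p. In injured against intact mutant discs, where 13.1% of all tested genes were called higher and 17.7% lower, the list of YAP/TAZ pathway genes had 4 of 17 called higher and 2 lower. Stk4 (0.81 ± 0.13, adjusted p 0.0009385), Mob1a (0.91 ± 0.19, 0.003125) and Mob1b (0.48 ± 0.16, 0.03102), which belong to the Hippo kinase module that restrains YAP, rose. Its other members in the list were not called: Lats1 (0.09 ± 0.09, 0.4591), Lats2 (0.14 ± 0.10, 0.2858), Sav1 (0.16 ± 0.08, 0.1647) and Stk3 (-0.14 ± 0.09, 0.2554). Wwtr1, which encodes TAZ, rose by 0.60 ± 0.18 (0.02267), whereas Yap1 fell by 0.25 ± 0.08 (0.03489) and its DNA-binding partner Tead1 fell by 0.32 ± 0.10 (0.03215).

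Of 18 YAP/TAZ target genes outside the CCN family, 4 were called higher and 6 lower in injured mutant discs, with a median difference of 0.10 against -0.08 over all genes. F3, the gene of tissue factor, rose most clearly, by 3.29 ± 0.45 (adjusted p 0.0004759), from a mean of 9.26 to 104 TPM. Gadd45a rose by 1.48 ± 0.26 (0.001454) and Nt5e, which encodes the surface 5'-nucleotidase CD73, by 1.85 ± 0.35 (0.001984), while Fjx1 fell by 1.82 ± 0.35 (0.002161). F3 was also the 1 gene of the 6 lists called in wild-type discs, where limma called 0.116% of all tested genes. It rose there by 3.04 ± 0.51 (0.04139). The textbook YAP/TAZ targets Ccn1 and Ccn2 were not called in either genotype. With so few calls over all genes in wild-type discs, the lack of a call there says little.

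The MRTF/SRF list, actin-linked genes and their regulators, had 4 of 13 called higher and 0 lower in injured mutant discs, with a median of 0.29. Actn1 (1.25 ± 0.29, adjusted p 0.00546), Flna (1.16 ± 0.28, 0.007736) and Tpm4 (0.75 ± 0.17, 0.005948), which encode actin-binding proteins, rose, as did Srf itself (0.47 ± 0.15, 0.02998). The other genes of the list were not called. Of these, Acta2 (-0.57 ± 0.54, 0.4506), Cnn1 (-0.12 ± 0.30, 0.7989), Mrtfb (-0.06 ± 0.10, 0.6905) and Myl9 (-0.03 ± 0.67, 0.9775) were lower. Cnn2 (0.76 ± 0.61, 0.3687), Vcl (0.51 ± 0.20, 0.06893) and Tpm1 (0.29 ± 0.13, 0.09632) were higher. So were Mrtfa (0.29 ± 0.13, 0.09788) and Tagln (0.03 ± 0.32, 0.9523). In wild-type discs 0 of 13 were called, where limma called 0.116% of all tested genes, and the median difference of the list was 0.26.

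The TGF-beta list had 4 of 17 called higher and 5 lower in injured mutant discs, with a median of 0.11. The feedback inhibitor gene Smad7 (1.67 ± 0.27, adjusted p 0.0009133) and the matrix gene Ltbp2 (2.32 ± 0.36, 0.0007846) rose, while the ligand gene Tgfb3 fell by 1.09 ± 0.17 (0.0007584). The other ligand genes Tgfb1 (0.32 ± 0.24, 0.3362) and Tgfb2 (-0.09 ± 0.20, 0.7548) were not called.

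Receptors and binding partners of CCN proteins had 5 of 20 called higher and 3 lower in injured mutant discs, with a median of 0.07. The chains of the leukocyte integrin Mac-1, to which Ccn1 and Ccn2 bind, rose: Itgb2 by 4.60 ± 0.77 (adjusted p 0.001151) and Itgam by 3.62 ± 0.67 (0.00182). Itga5, the fibronectin receptor chain, rose by 0.97 ± 0.21 (0.004675) and Itgav by 0.49 ± 0.11 (0.006289), while Itgb5 fell by 0.60 ± 0.11 (0.001667). Lrp1, an endocytic receptor for Ccn2, differed by -0.04 ± 0.13 (0.8362).

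Of the Wnt target list, 9 of 11 genes were tested and 4 were called lower and 0 higher in injured mutant discs, with a median of -0.47. Notum (-1.28 ± 0.24, adjusted p 0.002019), Rnf43 (-1.16 ± 0.24, 0.003195) and Znrf3 (-0.64 ± 0.16, 0.009059), which encode feedback inhibitors of Wnt signalling, fell, as did the transcription factor gene Lef1 (-0.91 ± 0.32, 0.04215). The other tested genes of the list were not called. Of these, Axin2 (-0.47 ± 0.20, 0.08654), Nkd1 (-0.29 ± 0.36, 0.5637) and Tcf7 (-0.25 ± 0.22, 0.4189) were lower. Nkd2 (1.56 ± 0.63, 0.0741) and Apcdd1 (0.59 ± 0.33, 0.1881) were higher. Ccn4, the Wnt1-induced member, had a difference of 0.39 in the same comparison. In both genotype comparisons and in the interaction, limma called 0 genes in each of the 6 lists. Of all tested genes it called 0.0165% between genotypes in intact discs, 0.918% in injured discs and 0 in the interaction. With so few calls over all genes, the lack of list calls says little.

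**Figure D4:**
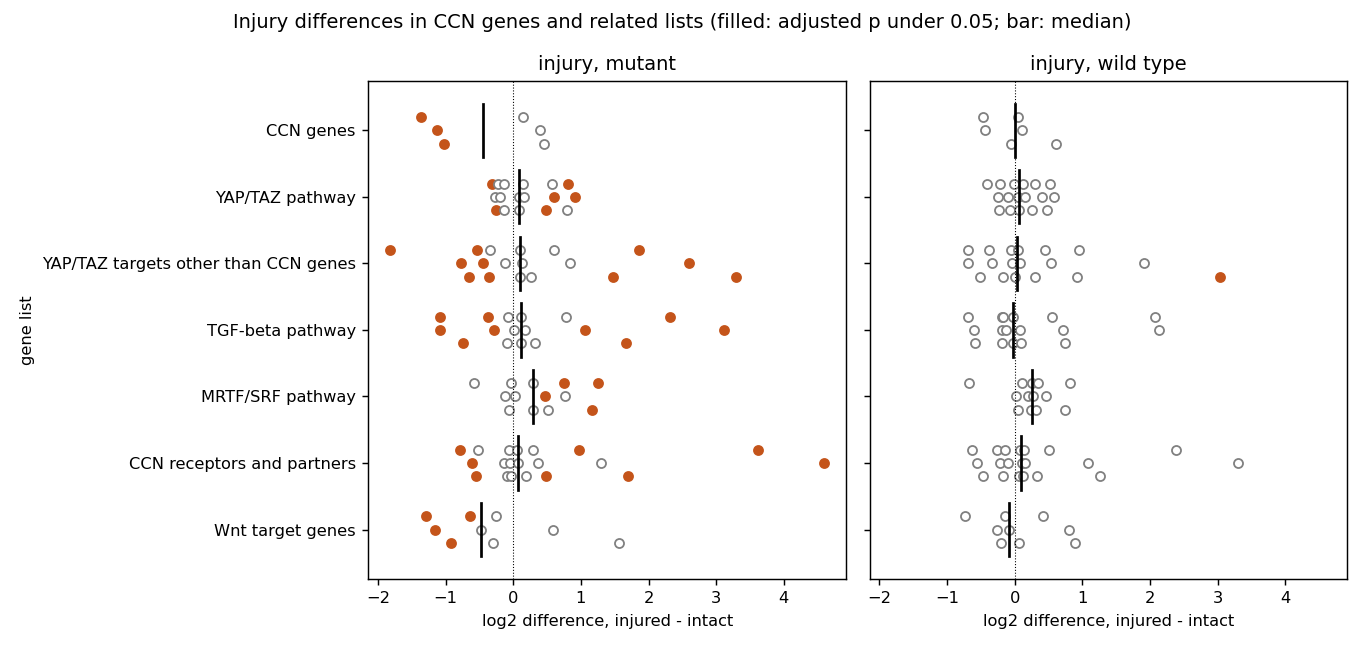
Log2 difference between injured and intact discs of the CCN genes and of each gene of the 6 lists, in mutants and wild type, with filled points where the limma adjusted p is under 0.05 and a bar at the median. The medians of the MRTF/SRF and Wnt target lists in mutants are 0.29 and -0.47.

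Cell type markers also moved with injury in mutants, where 17.7% of all tested genes were called lower and 13.1% higher. In wild-type discs limma called 0.116% of all tested genes, so a lack of marker calls there says little. Bulk libraries do not separate fewer cells of a type from less RNA per cell. Notochordal markers (9 names present, among them T, which encodes brachyury) summed to 7086 to 15033 TPM in intact and 599 to 7090 TPM in injured mutant discs, and 5 of the 8 tested were called lower there (Krt8, Krt19, T, Car3 and Cdh2; markers named here were chosen after their values were seen). Their defining gene T averaged 2542 TPM in intact and 604 TPM in injured mutant discs, and Shh was at 0 in all 3 intact wild-type libraries. In wild-type discs the notochordal sum was 15542 to 15957 TPM intact and 3089 to 11243 TPM injured, without overlap, and 0 of 8 were called. Of single genes tested, 15.6% had ranges that did not overlap there. Car3 made up the largest part of this sum, with means of 9435 TPM intact and 3640 TPM injured. Among the 8, only Foxa2 had a higher mean after injury, at 2.87 and 4.21 TPM. Tenocyte and outer annulus markers summed to 3522 to 4077 TPM in intact and 1638 to 3010 TPM in injured mutant discs, with Scx, Mkx, Tnmd and Fmod called lower and Thbs4 higher among the 6. In wild-type discs this sum was 3101 to 4188 TPM intact and 4085 to 7451 TPM injured, but the members differed: mean Col1a1 was 735 TPM intact and 2538 TPM injured, whereas Fmod was at 2638 and 2153 TPM, Mkx at 175 and 121 TPM and Tnmd at 19.9 and 15.4 TPM, and none was called. Chondrocyte markers summed to 29683 to 33410 TPM in intact and 6114 to 17940 TPM in injured mutant discs, with Comp and Chad called lower and Hapln1 higher among the 8. Chad (means of 17881 and 3055 TPM) and Comp (3685 and 757 TPM) made up most of that difference, while Acan averaged 6269 and 5478 TPM and Col2a1 2649 and 2931 TPM. In wild-type discs the chondrocyte sum was 24516 to 29997 TPM intact and 7338 to 23931 TPM injured.

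Leukocyte markers were called higher after injury in mutants, where 13.1% of all tested genes were called higher. Macrophage markers summed to 142 to 179 TPM in intact and 388 to 2249 TPM in injured mutant discs, with 5 of 6 called higher (Adgre1, Cd68, Mrc1, C1qa and Cd14), and neutrophil markers to 1.68 to 2.55 and 13.4 to 1004 TPM, with 4 of 5 tested called higher (S100a8, S100a9, Csf3r and Cxcr2). Mpo, a defining gene of neutrophil granules, was at 0 in every library outside the injured mutant group. In wild-type discs the macrophage sum was 132 to 161 TPM intact and 184 to 1165 TPM injured, and the neutrophil sum 5.33 to 5.84 and 3.18 to 185 TPM, with at least 1 injured mouse below the intact ones for neutrophil markers. Limma called 0 of these markers in wild type, where it called 0.116% of all tested genes. Of the remaining markers, Pdgfra, Pi16 and Cd34 (fibroblast) and Des (smooth muscle and pericyte) were called higher in injured mutant discs, and Clec3b (fibroblast), Myh11 (smooth muscle), Alpl (osteoblast) and Krt1 (epidermis) lower. Endothelial, skeletal muscle, red cell and adipocyte lists had 0 calls there. Between genotypes in injured discs, where limma called 0.918% of all tested genes, Myh11 and Alpl were called lower in mutants. The other marker lists had 0 calls. The part of these cell types in the differences of Ccn3, Ccn5 and Ccn6 was not tested.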

How the data were processed

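Per the labels' protocols, Trizol extraction of disc RNA was followed by ribosomal depletion (FastSelect) and NEBNext Ultra II libraries; the molecule field reads polyA. The authors deposited 1 table of TPM values for 16 libraries. The submitters' processing notes name bcl2fastq 2.20 and GRCm38; the aligner, counting method, strand setting and annotation are not given in the sources used here. Ensembl identifiers were looked up in GENCODE M21 (GRCm38), where 49056 of 49315 were found, for positions and exon lengths. Implied reads were recovered as TPM over the worth of 1 read at a gene's exon length. Of values under 20 such reads, 94.2% to 95.0% per library came within 0.05 of whole, so depths are approximate.

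From the deposited TPM values, log2(TPM + 1) was computed and tested with limma 3.58.1 in R 4.3.3 (lmFit, eBayes with trend), in 1 fit of 16 libraries, for genes at 1 TPM or more in at least 3 libraries (24188, the 6 CCN genes included). Errors of differences are the moderated standard errors. The p-values were Benjamini-Hochberg adjusted over all tested genes, with a threshold of 0.05. Tables were joined with Python 3.11.15. The test was checked on simulated data. Groups came from the titles, since the genotype field of wild-type samples is cut short. Mouse numbers recur between groups but name different animals, so the fit had no pairing. Beyond separate mouse numbers, nothing says how far the mice are independent.

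The members and lists were chosen with earlier results of these data known. Named by rule were the 6 CCN genes, the 4 genes of each list with the smallest p for injury in mutants, defining pathway genes, and the 4 genes most like each member; 1 list gene that the rule names is not reported here. The uncalled Hippo, MRTF/SRF and Wnt list genes other than Axin2 were named after their values were seen. Marker lists also covered fibroblasts, endothelium, smooth muscle, skeletal muscle, osteoblasts, red cells, epidermis and adipocytes. Alternatives covered the pseudocount (0.1), filters (none, or a mean of at least 5 TPM), scaling, the model, sample weights, a replicate block, library naming and leaving out each mouse. A fit of voom on implied reads was added after seeing the data.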

Additional observations from a re-analysis of the deposited data

How the results depend on the processing

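The 3 calls in injured mutants (Ccn3, Ccn5, Ccn6) kept their direction under all alternatives run. With only the M libraries the count was 0, where limma called 329 higher and 414 lower of all 23489 genes tested. The main fit called 3168 higher and 4270 lower of 24188. Leaving out 1 mouse gave a count of 2 to 3. Between genotypes in injured discs the count of 0 became 1 with sample weights (Ccn6), 1 with voom on implied reads (Ccn5) and ranged from 0 to 2 when leaving out 1 mouse. More of all tested genes were called lower in mutants in these settings too. The main fit called 176 of 24188 lower, sample weights 745 of 24188 and voom 468 of 24100. The fit without injured wild type 3 called 1609 of 23927 lower, and that without injured mutant 4 called 536 of 24014. In the other 3 comparisons the count stayed 0. The cause of these shifts was not tested.

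The replicate block gave the same 3 calls in injured mutants (Ccn3 -1.24, Ccn5 -1.14, Ccn6 -1.29) and changed no other call. Deviations of same-numbered libraries correlated weakly (r from -0.217 to 0.0779). In small groups that differ in injury or genotype, this cannot decide whether same-numbered mice were linked.

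Some differences that were not called changed sign, most of them near 0. The main exceptions were Ccn1 for injury in mutants (0.46) and the interaction (0.41). With only A8 libraries, Ccn1 was -0.18 for injury in mutants, 0.48 for genotype in intact discs and -0.23 for the interaction. With only M libraries, Ccn2 was -0.0026 for injury in mutants, 0.12 for genotype in intact and 0.16 in injured discs, and Ccn4 was 0.0011 for genotype in intact discs. Sample weights gave -0.0869 for Ccn1 and 0.14 for Ccn2 for injury in wild type, and quantile normalization 0.11 for Ccn2. Median-of-ratios scaling gave 0.0084 for Ccn1 for genotype in intact discs and 0.0921 for Ccn2 in injured ones. The replicate block gave -0.0224 for Ccn6 for injury in wild type and 0.0377 for Ccn1 for genotype in intact discs. Leaving out 1 mouse gave Ccn2 -0.0168 to 0.33 for injury in mutants, -0.24 to 0.19 for injury in wild type, -0.26 to 0.18 for genotype in injured discs and -0.0548 to 0.38 for the interaction. It gave Ccn1 -0.20 to 0.30 for injury in wild type and -0.26 to 0.25 for genotype in intact discs, and Ccn6 -0.11 to 0.42 for injury in wild type.

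Over all 6 genes and 5 comparisons, 622 alternative values kept direction and call and 32 changed direction. The filter on a mean of 5 TPM leaves out Ccn6, and a fit of only the groups compared gives no interaction. Few reads limit Ccn6 most.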
